A study of Homo sapiens with 95 samples.

Results

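The Iroquois homeobox genes, IRX1 to IRX6, were followed by gene symbol through a multiplexed RNA-seq experiment in AALE cells, which are human bronchial epithelial cells that were immortalized in culture. The 6 genes are the whole family, and all 6 symbols were among the 27978 symbols listed in the count tables. The family was chosen by the expression values of IRX2, named as the largest fall when CDKN2A knockout cells were compared with their control. That comparison, taken here as the one between DMSO wells, is given as a description, with no test.

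The 95 wells cover 8 lines of AALE cells and 4 treatments, with 3 wells per combination and 2 for FGFR1 with CSC. CDKN2A and FAT1 were knocked out by CRISPR, and their control, GFP, was cells transfected with the pSpCas9-EGFP plasmid (PX458) without an sgRNA. NRF2 (the gene NFE2L2), FGFR1, NRG1 and PIK3CA were overexpressed, and their control, HCRED, carried an empty vector with the HcRed reporter. Confluent wells of each line received DMSO, cigarette smoke condensate (CSC, 24 μg/ml), benzo[a]pyrene (BaP, 173 μM) or the tobacco nitrosamine NNK (490 μM). Each perturbation was represented by 1 named line, and the sources used here do not say whether a line was a clone or a pool of cells. The study treats the wells of a combination as biological replicates, and the p-values below measure the spread between wells and not between independently made lines. All 8 lines share the AALE background, and the CDKN2A and FAT1 comparisons share the GFP wells as the 4 overexpression comparisons share the HCRED wells.

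Iroquois genes encode homeodomain transcription factors of the TALE class, named for 3 extra amino acids in a loop of the homeodomain, a class that also holds the PBX, MEIS, PKNOX and TGIF factors. In mammals the family lies in 2 clusters that arose by duplication, one with IRX1, IRX2 and IRX4 and one with IRX3, IRX5 and IRX6. The genes pattern the nervous system, heart, limb and other embryonic tissues, and several of them are expressed in the developing lung epithelium. In the GRCh37 annotation the first cluster lies on chromosome 5, with IRX4 at chr5:1877527-1887350 on the minus strand, IRX2 at chr5:2745959-2751791 on the minus strand and IRX1 at chr5:3595946-3601517 on the plus strand. The second lies on chromosome 16, with IRX3 at chr16:54317216-54320699 on the minus strand, IRX5 at chr16:54964777-54968397 and IRX6 at chr16:55358115-55364668, both on the plus strand. Next to IRX2, on the opposite strand, begins the noncoding gene C5orf38 (IRX2-DT, chr5:2752245-2755511 in the annotation), whose start is 0.5 kb from that of IRX2, and CRNDE, a long noncoding RNA gene, begins 1.68 kb from the start of IRX5 on the opposite strand.

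The stretch between the start of IRX2 and the RefSeq start of IRX2-DT is shown because IRX2 and C5orf38 differed together in some comparisons. These were CDKN2A against GFP, NRF2 and FGFR1 against HCRED, and GFP against HCRED, as described below. In FAT1 and PIK3CA only IRX2 passed its test. The stretch is intergenic, lies upstream of both genes and has 215 bases, at GRCh37 chr5:2751792-2752006, plus strand. Capitals mark GC boxes, the letters GGGCGG or, read from the other strand, CCGCCC.
IRX2/IRX2-DT: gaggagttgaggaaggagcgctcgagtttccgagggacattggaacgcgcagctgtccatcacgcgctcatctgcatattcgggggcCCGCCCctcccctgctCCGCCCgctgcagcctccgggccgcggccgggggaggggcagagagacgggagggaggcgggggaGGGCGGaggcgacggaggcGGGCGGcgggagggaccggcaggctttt
The stretch had 72.6% GC, 24 CpG dinucleotides and 4 GC boxes, at positions 88, 104, 169 and 188 from its first base. It was taken from the RefSeq promoter table (GRCh38.p14) and found once on chromosome 5 of GRCh37, the files' build. Among the 35116 windows of 300 bases around gene starts in that table, 45.0% held a GC box on either strand and 9.1% held 4 or more. GC boxes were in 5 of the 6 windows of IRX1, IRX2, IRX4 and IRX2-DT, the symbols that had an entry. None of those 6 windows held TGACNNNGC, the core of the antioxidant response element through which NRF2 acts, which 13.3% of all windows held, or TATAAA, which 11.5% held. These matches describe the letters in the windows and no binding.

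Counted reads per well ranged from 287446 to 2116383 (median 934235), and 9 wells had fewer than 500000. The median level of the targeted gene, in CPM (counted reads scaled to a common library size), was 48.3 in the CDKN2A line against 105 in GFP, and CDKN2A transcripts were therefore still counted in every well of its knockout. FAT1 fell by 1.82 on the log2 scale in its line, and NFE2L2, FGFR1, NRG1 and PIK3CA rose in theirs by 2.73, 4.54, 8.23 and 2.63. All 8 basal airway epithelial markers had reads in most wells, with a summed level of 4088.9 to 11620 CPM, against 0 of 3 endothelial markers (0 to 3.9 CPM summed), 2 of 6 fibroblast markers (7.5 to 69.6) and 1 of 4 leukocyte markers (0 to 38), with CD3E at a median of 0 in every line. NRG1 exceeded 50 CPM in 8 of the 83 wells of other lines, among them FGFR1 with DMSO (372 and 353 CPM in replicates 2 and 3), CDKN2A with DMSO (254 in replicate 3) and NRF2 with CSC (75.7, 119 and 148). The tested comparisons that include these wells were also fitted without them, while the line means, orders and correlations include them.

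IRX2 was the most abundant member, with a mean of 21.2 CPM per kilobase of exon over the 95 wells. IRX1 followed with 5.99 and IRX3 with 3.55, while IRX5 had 0.996, IRX4 0.596 and IRX6 0.0195 CPM per kilobase. In reads, IRX2 had 6188 in all wells together, IRX1 1073, IRX3 900, IRX5 244 and IRX4 146. IRX6 had 3 reads, in 3 wells, and could not be compared between groups at this depth. IRX1 was read in every well, IRX3 in 94 of 95, IRX2 in 86, IRX5 in 73 and IRX4 in 40. The reads behind IRX4 and IRX5 are few, so only large differences of these 2 genes were detectable. In bulk RNA, fewer cells that express a gene and less of its RNA per cell cannot be told apart.

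In CPM, IRX2 varied more between lines than any other member. Its mean level was 146 ± 30.4 CPM in FAT1 (SD, n = 12), 107 ± 14.2 in NRF2 (n = 12), 91.1 ± 10.8 in GFP (n = 12), 80.8 ± 17.2 in FGFR1 (n = 11), 61.9 ± 6.42 in PIK3CA (n = 12), 50.8 ± 15.8 in NRG1 (n = 12) and 39.9 ± 7.25 in HCRED (n = 12). In the CDKN2A line it was 0.725 ± 1.57 (n = 12). Neighbours in this order differed by more than the larger SD of the log2 level between FAT1 and NRF2, NRF2 and GFP, FGFR1 and PIK3CA, and HCRED and CDKN2A. GFP and FGFR1, PIK3CA and NRG1, and NRG1 and HCRED did not. The gap from HCRED to CDKN2A was 3.99 on the log2 scale, and it was the one gap between neighbours without overlap of the wells. The CDKN2A line is also the one whose IRX2 values chose the family. Outside it, the mean log2 level of IRX2 ran from 5.37 in HCRED to 7.18 in FAT1. That of IRX4 ran from 1.18 in PIK3CA to 3.29 in NRF2, a wider range that rests on few reads.

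**Figure D1:**
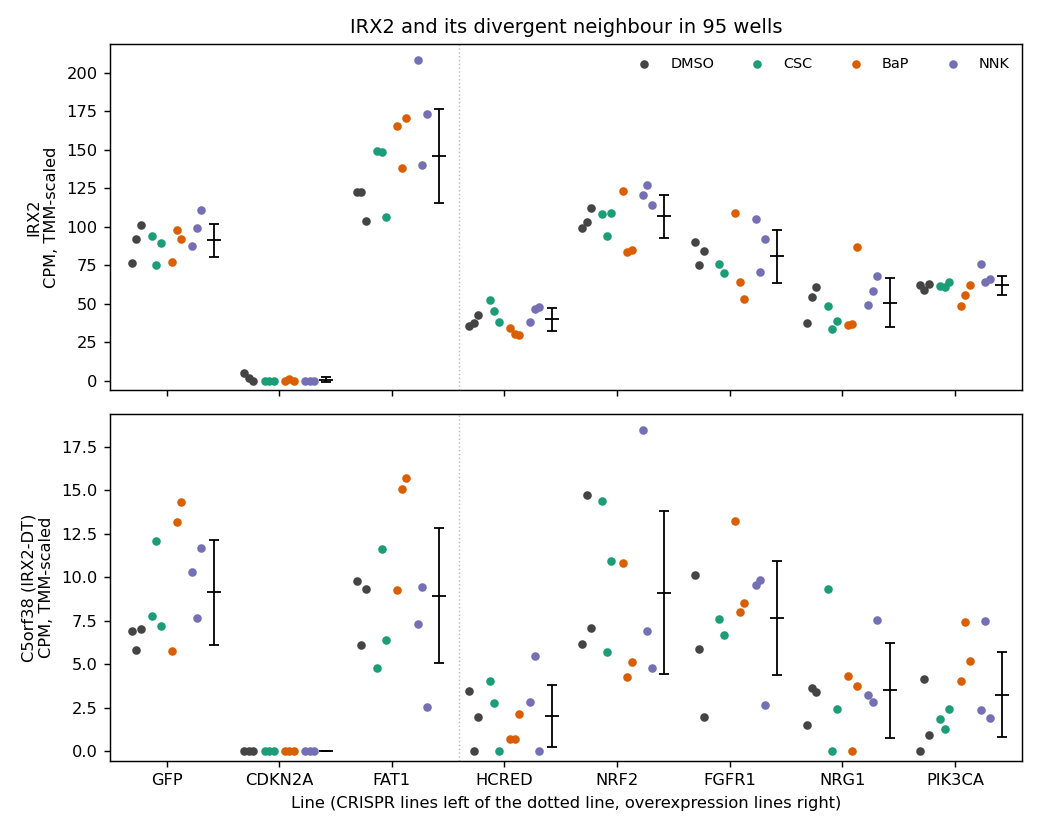
Levels of IRX2 (top) and C5orf38 (bottom) in CPM in each of the 95 wells, by line (horizontal axis) and treatment (colours), with the mean and SD of each line as bars. The CDKN2A wells of IRX2 lie between 0 and 5.23 CPM, below every well of the other 7 lines, whose lowest value is 29.5 CPM, and C5orf38 is at 0 in all 12 CDKN2A wells.

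In the CDKN2A line with DMSO, IRX2 had 6, 2 and 0 reads in the 3 wells, against 78, 95 and 130 in GFP with DMSO. These are 8 reads against 303. The fitted log2 difference was -5.62, and the next largest fall in that comparison was -5.51, of ZNF471. In the well with 0 reads NRG1 stood at 254 CPM, and IRX2 differed by -4.43 when replicate 3 of both lines was left out and by -6.60 without replicate 1. C5orf38 had 0 reads in all 3 CDKN2A wells against 7, 6 and 9 in GFP.

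The choice of the family names no treatment and was read as the DMSO comparison, and on that reading the 9 carcinogen-treated wells of each line did not enter it. The same measure was tested in these wells, with earlier results of these data known, so the p is no independent support of the choice. IRX2 reads were 0, 0 and 0 in the CDKN2A wells with CSC, 0, 1 and 0 with BaP and 0, 0 and 0 with NNK. GFP had 97, 112 and 87 with CSC, 80, 52 and 45 with BaP and 68, 52 and 38 with NNK. In CPM, the CDKN2A wells ranged from 0 to 1.40 and the GFP wells from 75.1 to 111 (median 92.2), with no overlap. IRX2 fell by 6.99 on the log2 scale (SE 0.37, limma-voom adjusted p = 3.49e-24), and within the single treatments by 6.69 with CSC, 6.67 with BaP and 7.69 with NNK. It passed the filter of a mean count above 1 only through the GFP wells. With 1 read in the CDKN2A wells, the size of these values depends on sequencing depth and on the count that voom adds before logarithms. The treatments are therefore not ranked by them. By counted reads, 1 of 7975385 stood against 631 of 7220873, a 697-fold ratio with an exact 95% interval of 125 to 27570 that covers counting error only. These wells come from the same CDKN2A and GFP lines as the DMSO wells, and they repeat the measure in other wells and not in other lines.

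C5orf38, the noncoding neighbour, fell with it. It had 0 reads in all 9 carcinogen-treated CDKN2A wells and 69 in the GFP wells, where it ranged from 5.78 to 14.3 CPM. With a floor of 3 counts over the group in place of 0, its level was 25.4-fold lower, a ratio without the counting error of the GFP reads. Its test gave an adjusted p of 1.11e-12 in limma-voom. C5orf38 passed the filter of a mean count above 1 only through the GFP wells, so this p is no independent support of the fall. The other 28 tested genes from -2660 to 3962 kb around IRX2 differed by -1.50 (ZDHHC11) to 1.42 (SLC12A7) on the log2 scale. Of these genes 5 rose and 4 fell, with a median difference of -0.091 beside 0.008 over all genes tested. These 28 genes were listed by position alone. The nearest of them on the IRX4 side, MRPL36 and NDUFS6, mitochondrial protein genes at -950 kb, rose by 0.73 and 0.34 on the log2 scale.

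**Figure D2:**
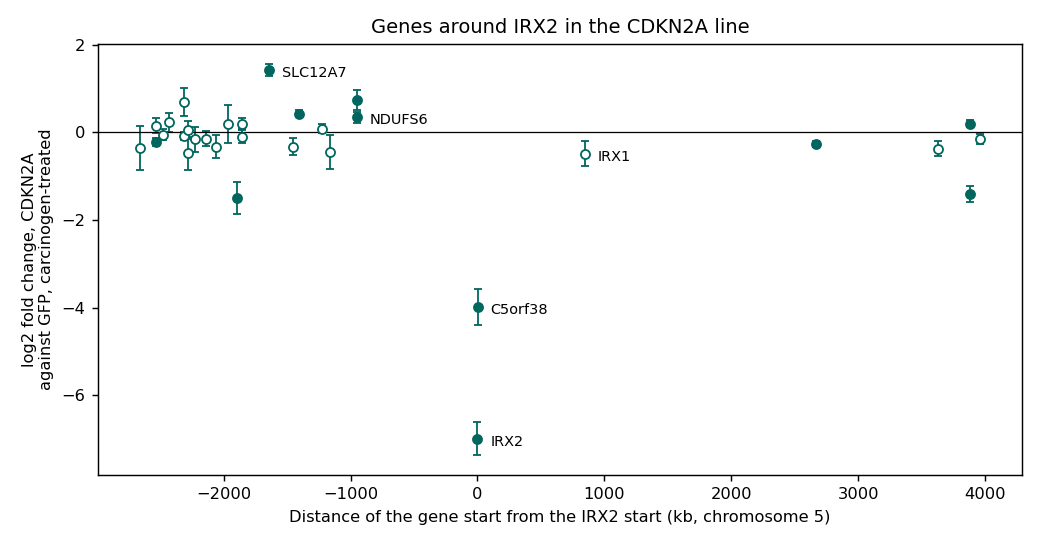
Log2 difference of CDKN2A from GFP in carcinogen-treated wells for the tested genes around IRX2, by distance of their starts from that of IRX2 in kb (bars, SE; filled points, adjusted p under 0.05). IRX2 at -6.99 and C5orf38 at -3.98 lie far below the neighbouring genes on both sides. The CDKN2A wells had almost no reads of either gene, so both sizes depend on depth and on the count added before logarithms.

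In this comparison 50.9% of 14277 tested genes passed an adjusted p of 0.05, and of the 6 members 4 could be tested and 1 passed, IRX2. IRX1, the other chromosome 5 member with enough reads, had a median of 9.93 CPM in the CDKN2A wells and 13.6 in GFP, and its log2 difference of -0.49 (SE 0.29) had an adjusted p of 0.156 in limma-voom. IRX3 differed by -0.43 (SE 0.23, adjusted p = 0.113) and IRX5 by 0.46 (SE 0.35, adjusted p = 0.286). With the trend of the fold changes on GC content and exon length removed, IRX1 (-0.79, adjusted p = 0.0133) and IRX3 (-0.66, adjusted p = 0.0112) passed the threshold. IRX4 had 0 reads in all 12 CDKN2A wells and 10 in the 12 GFP wells. With the same kind of floor its level was 3.53-fold lower, again without the counting error of the GFP reads. The 8 basal epithelial markers summed to a median of 5713.8 CPM in the CDKN2A wells and 6797.9 in GFP, and the 6 fibroblast markers to 41.4 and 30.6, and their part in these results was not tested. Of the basal markers 1 rose and 4 fell in the carcinogen-treated wells.

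In the FAT1 knockout all 4 tested members passed the threshold, beside 48.8% of all 14021 tested genes. The 2 chromosome 5 members were higher and the 2 chromosome 16 members lower. IRX2 ranged from 104 to 208 CPM (median 145) in the FAT1 wells and from 75.1 to 111 (median 92.2) in the GFP wells, so the groups overlapped only at their edges. It rose by 0.66 on the log2 scale (SE 0.08, limma-voom adjusted p = 3.32e-11). The 12 GFP wells include the 3 DMSO wells of the comparison that chose the gene, and within the single carcinogens IRX2 rose by 0.64 with CSC (adjusted p = 5.36e-05), 0.89 with BaP (adjusted p = 2.96e-06) and 0.77 with NNK (adjusted p = 6.57e-05). C5orf38 differed by -0.04 (adjusted p = 0.915), and did not pass, although IRX2 did. IRX1 rose by 0.49 (SE 0.21, adjusted p = 0.0473). This call was lost without replicate 1 (0.40, adjusted p = 0.238), without replicate 2 (0.38, adjusted p = 0.237) and without the FAT1 well over 50 CPM of NRG1 (adjusted p = 0.0575). The difference was 0.19 with the GC and length trend removed (adjusted p = 0.476).

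IRX3 had a median of 4.76 CPM in FAT1 and 13.4 in GFP and fell by 1.05 on the log2 scale (SE 0.24, adjusted p = 0.000208 in limma-voom). IRX5 had 15 reads over the 12 FAT1 wells against 45 in GFP and fell by 1.11 (SE 0.41, adjusted p = 0.0206), a call lost without replicate 1 or 2 (adjusted p = 0.0687 each). CRNDE, the gene that begins beside IRX5, fell by 0.75 (adjusted p = 0.00315). The wider region fell as well, since of 51 other tested genes from -4906 to 3803 kb around IRX5, 31 fell and 1 rose, with a median log2 difference of -0.375 beside 0.027 over all genes. The part of this regional difference in the values of IRX3 and IRX5 was not tested. The basal markers summed to 4088.9 to 6141.5 CPM in FAT1 (median 5183.2) and 6040.2 to 7655.6 in GFP (median 6797.9). Of the 8 markers 5 fell and 1 rose (median log2 difference -0.346, beside 0.027), and KRT14, a basal keratin, fell by 3.14. The fibroblast markers summed to a median of 36.1 CPM in FAT1 and 30.6 in GFP, with COL1A1, a collagen gene, higher by 0.45 (adjusted p = 0.00607). The part of these markers in the differences of the members was not tested.

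**Figure D3:**
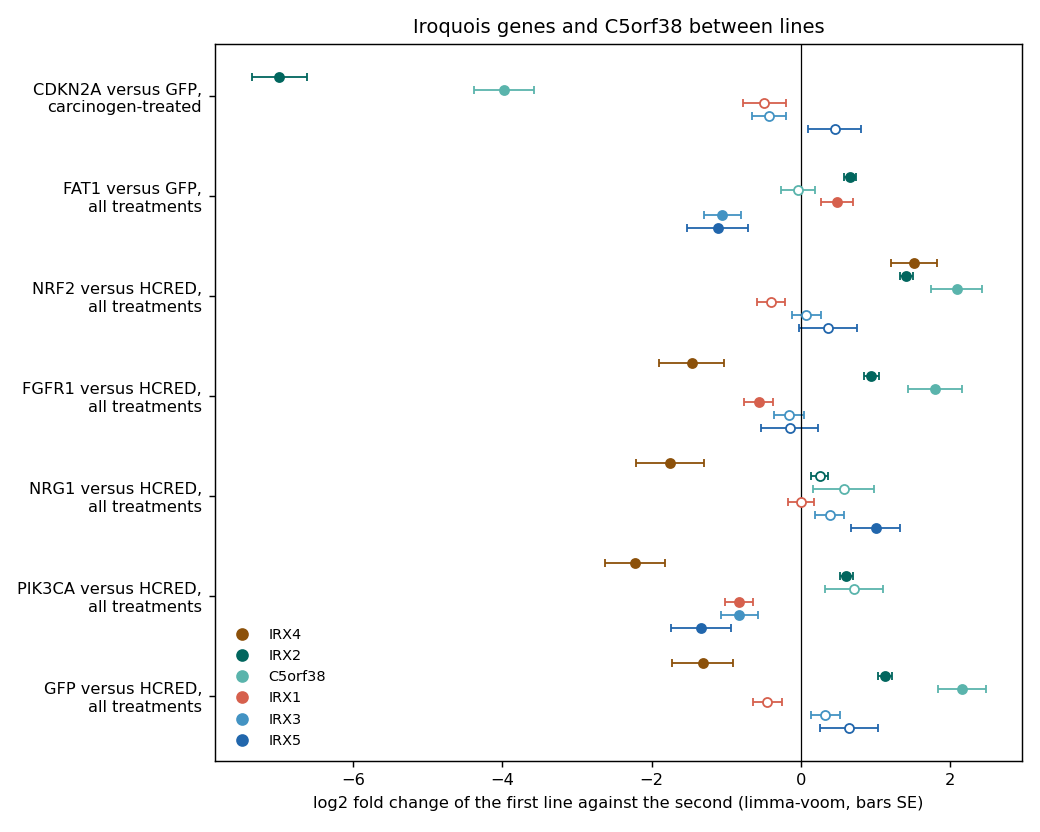
Log2 difference from the control line for each tested member and C5orf38 (bars, SE; filled points, adjusted p under 0.05). IRX2 is higher than its control in FAT1, NRF2, FGFR1 and PIK3CA and lower in CDKN2A, whereas IRX4 is higher in NRF2 alone among the overexpression lines.

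The NRF2 line, which overexpresses a transcription factor of the oxidative stress response, had more IRX2 and IRX4 than HCRED. In this comparison 2 of 5 tested members passed the threshold, beside 21.7% of all genes. IRX2 ranged from 83.7 to 127 CPM (median 109) in NRF2 and from 29.5 to 52.7 (median 38.1) in HCRED, without overlap. It rose by 1.42 on the log2 scale (SE 0.09, limma-voom adjusted p = 2.29e-22), and C5orf38 rose by 2.09 (SE 0.35, adjusted p = 1.91e-06). IRX4 was read in all 12 NRF2 wells, with 83 reads and 3.08 to 16.6 CPM (median 8.48), and in 11 of 12 HCRED wells, with 33 reads and 0 to 8.22 CPM (median 2.54). It rose by 1.52 (SE 0.31, adjusted p = 0.00011), and by counted reads it was 2.91-fold higher (exact 95% interval 1.92 to 4.50). IRX1, IRX3 and IRX5 did not pass the test, with log2 differences of -0.40, 0.07 and 0.37. Without the 3 NRF2 wells with CSC, which were over 50 CPM of NRG1, IRX2 rose by 1.51 and IRX4 by 1.63. The basal markers summed to a median of 8767.4 CPM in NRF2 and 8146.8 in HCRED, against 6295.9 in FGFR1, 5721.5 in NRG1 and 5512.1 in PIK3CA. In NRF2 the sum was led by the keratins KRT5 and KRT17 (medians 4583.2 and 2153 CPM). Of the 8 markers 3 rose and 3 fell in NRF2, and 1 rose and 6 fell in FGFR1. In NRG1 6 fell, and in PIK3CA 1 rose and 7 fell. The shares of all genes that passed were 21.7%, 13.4%, 10.8% and 27.8%. The part of these markers in the differences of the members was not tested.

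The other overexpression lines had less IRX4 than HCRED. In the FGFR1 line, which overexpresses a fibroblast growth factor receptor, IRX4 had 9 reads over 11 wells and fell by 1.46 on the log2 scale (SE 0.44, limma-voom adjusted p = 0.0152), a call lost without replicate 1 (adjusted p = 0.0666) or replicate 3 (-0.95, adjusted p = 0.286). In the NRG1 line, which overexpresses an ErbB receptor ligand, it had 5 reads and fell by 1.75 (SE 0.46, adjusted p = 0.00588), lost without replicate 2 (adjusted p = 0.0621). In the PIK3CA line, which overexpresses the catalytic subunit of a phosphoinositide kinase, it had 3 reads and fell by 2.22 (SE 0.40, adjusted p = 8.28e-06). IRX4 had 33 reads in HCRED. In each of these comparisons it passed the filter of a mean count above 1 only through the HCRED wells. The p-values are therefore no independent support of the falls. IRX4 was thus read most in NRF2, next in HCRED and in at most 10 reads in each of the other 6 lines, and NRF2 and HCRED, and HCRED and GFP, were the neighbours in that order that differed beyond the larger SD.

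IRX2 was higher than in HCRED in FGFR1 and PIK3CA too. In FGFR1 it ranged from 52.8 to 109 CPM (median 75.8), above every HCRED well, and rose by 0.95 (SE 0.10, limma-voom adjusted p = 3.27e-12), with C5orf38 at 1.80 (SE 0.36, adjusted p = 0.000138). In PIK3CA it ranged from 48.5 to 75.9 CPM (median 62.0), overlapping HCRED, and rose by 0.61 (SE 0.09, adjusted p = 4.90e-08), while C5orf38 differed by 0.71 (adjusted p = 0.178). In NRG1 it ranged from 34.0 to 86.6 CPM (median 48.8), and its log2 difference of 0.25 (SE 0.11) did not pass (adjusted p = 0.157).

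In the FGFR1 comparison 3 of 5 tested members passed beside 13.4% of all genes, in NRG1 2 of 5 beside 10.8%, and in PIK3CA 5 of 5 beside 27.8%. Each count includes IRX4, and that of PIK3CA also IRX5. There these genes passed the mean count filter only through the HCRED wells, so the counts are not read as an excess over the shares. Besides IRX2 and IRX4, IRX1 fell in FGFR1 by 0.56 (SE 0.20, limma-voom adjusted p = 0.0434). That call was lost without replicate 1 (adjusted p = 0.111) or replicate 2 (-0.37, adjusted p = 0.394) and without the FGFR1 wells over 50 CPM of NRG1 (-0.49, adjusted p = 0.178). In PIK3CA, IRX1 had a median of 9.98 CPM against 15.3 in HCRED and fell by 0.83 (SE 0.19, adjusted p = 0.000473).

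The chromosome 16 members passed the test in PIK3CA and, for IRX5, in NRG1, but these calls rest on few reads. In PIK3CA, IRX3 had a median of 5.67 CPM against 9.96 and fell by 0.82 (SE 0.25, limma-voom adjusted p = 0.00733), a call lost without replicate 2 (adjusted p = 0.0596) or replicate 3 (-0.61, adjusted p = 0.0759). IRX5 had 8 reads over 12 wells against 24 and fell by 1.34 (SE 0.40, adjusted p = 0.00723), lost without replicate 1 (adjusted p = 0.0686). In that comparison IRX5 passed the mean count filter only through the HCRED wells. In NRG1, IRX5 had 46 reads and rose by 1.0 (SE 0.33, adjusted p = 0.0379), but this call was lost without any 1 replicate (adjusted p = 0.0787, 0.275 and 0.185) and in edgeR's test (adjusted p = 0.0667). CRNDE rose by 0.88 in the NRG1 line (adjusted p = 0.0116) and differed by -0.78 in PIK3CA (adjusted p = 0.0748).

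The 2 control lines also differed from each other. Of the 5 members tested between GFP and HCRED 2 passed the threshold, beside 45.0% of all genes. IRX2 was higher in GFP by 1.13 on the log2 scale (SE 0.09, limma-voom adjusted p = 2.46e-18), with 75.1 to 111 CPM against 29.5 to 52.7 and no overlap. Here too the 12 GFP wells include the 3 DMSO wells of the comparison that chose IRX2, and within the single carcinogens it was higher by 0.87 with CSC (adjusted p = 1.45e-05), 1.43 with BaP (adjusted p = 1.98e-09) and 1.11 with NNK (adjusted p = 1.94e-05). C5orf38 was higher by 2.16 (SE 0.32, adjusted p = 3.03e-08), again with no overlap (5.78 to 14.3 against 0 to 5.48 CPM). IRX4 was lower in GFP by 1.32 (SE 0.41, adjusted p = 0.00636), a call lost without replicate 2 (adjusted p = 0.0548), and IRX1 differed by -0.45 (adjusted p = 0.0551). IRX4, with 10 reads in GFP and 33 in HCRED, passed the mean count filter only through the HCRED wells. The difference of IRX2 between the controls, which carry no perturbation of a named gene, was thus larger on the log2 scale than its differences from the control in FAT1, FGFR1 and PIK3CA. A size comparison across the CRISPR and overexpression lines therefore depends on the control used.

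**Figure D4:**
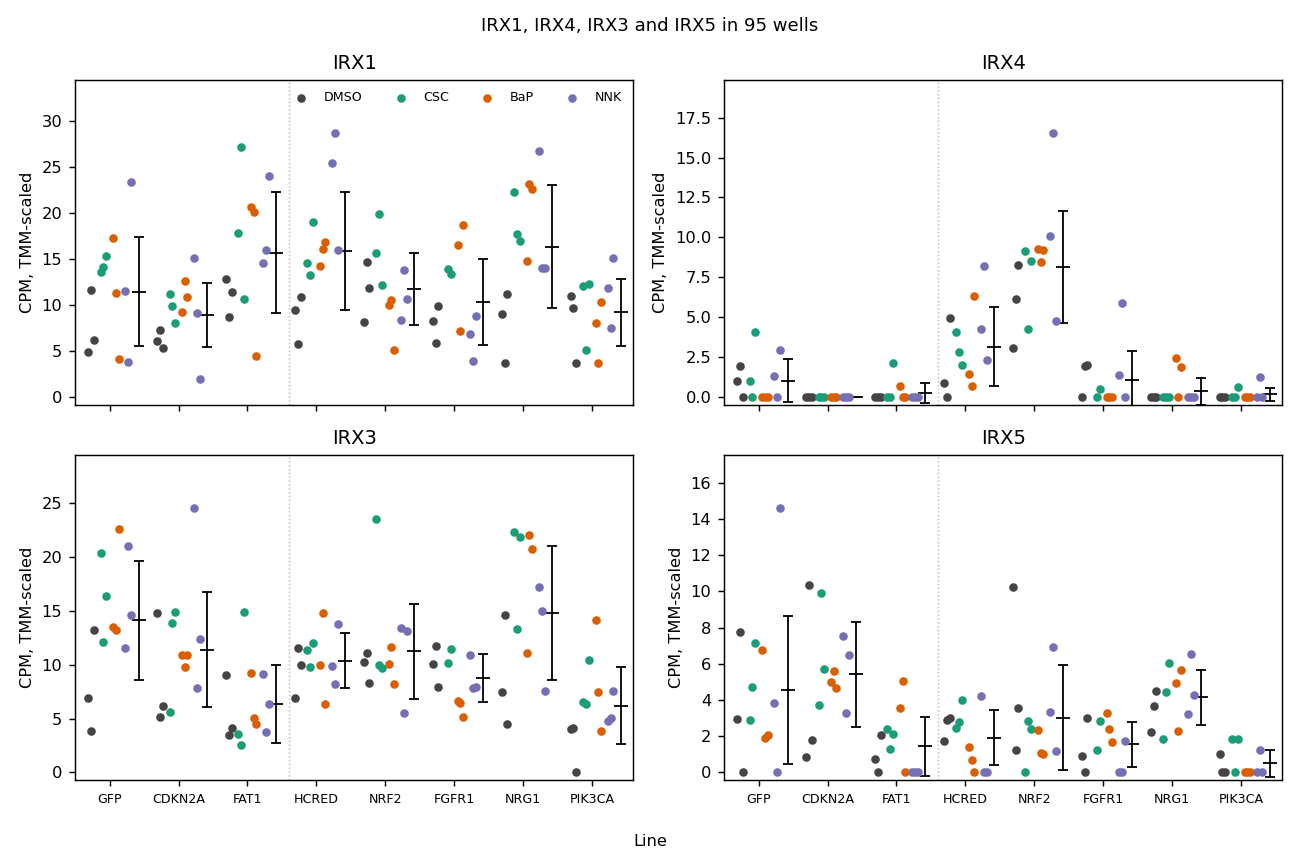
Levels of IRX1, IRX4, IRX3 and IRX5 in CPM in each well, by line (horizontal axis) and treatment (colours), with the mean and SD of each line as bars. IRX4 is highest in NRF2 (median 8.48 CPM) and at 0 in all 12 CDKN2A wells, while neighbouring lines overlap for IRX1, IRX3 and IRX5.

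The levels of IRX1, IRX3 and IRX5 formed a continuous order over the lines. IRX1 had means from 8.89 CPM in CDKN2A to 16.4 in NRG1, IRX3 from 6.18 in PIK3CA to 14.8 in NRG1, and IRX5 from 0.495 in PIK3CA to 5.41 in CDKN2A. No 2 neighbouring lines in these orders differed beyond the larger SD of the log2 level.

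In the comparisons of each carcinogen with DMSO, 55.6% of all tested genes passed the threshold with CSC, 51.4% with BaP and 51.8% with NNK. Of the 5 tested members 3 passed with CSC, 2 with BaP and 4 with NNK, all higher than in DMSO. IRX1 ranged from 3.64 to 14.7 CPM (median 8.86) with DMSO, from 5.06 to 27.2 (median 13.9) with CSC, from 3.71 to 23.2 (median 11.9) with BaP and from 1.95 to 28.8 (median 13.9) with NNK, and the treatments overlapped. It rose by 0.72 on the log2 scale with CSC (SE 0.13, limma-voom adjusted p = 2.24e-06), by 0.53 with BaP (SE 0.16, adjusted p = 0.00298) and by 0.56 with NNK (SE 0.16, adjusted p = 0.00257). Its mean was higher than in DMSO in 8 of 8 lines with CSC, 6 of 8 with BaP and 6 of 8 with NNK. Without replicate 1 the BaP value (0.44, adjusted p = 0.0814) and the NNK value (0.48, adjusted p = 0.0508) no longer passed.

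IRX3 rose by 0.66 with CSC (adjusted p = 0.000584), 0.51 with BaP (adjusted p = 0.00941) and 0.44 with NNK (adjusted p = 0.0288), and was higher in 8, 7 and 7 of 8 lines. The BaP value did not pass without replicate 2 (adjusted p = 0.0627), nor the NNK value without replicate 1 (0.0915) or 3 (0.31, adjusted p = 0.1996). IRX2, the most abundant member, had medians of 69.1 CPM with DMSO, 64.3 with CSC and 63.0 with BaP, and differed by -0.01 (adjusted p = 0.885) and -0.02 (adjusted p = 0.805). With NNK it rose by 0.25 (SE 0.06, adjusted p = 0.000513), to a median of 73.4 CPM. IRX5 with CSC (0.65, adjusted p = 0.0401) and IRX4 with NNK (0.71, adjusted p = 0.0298) passed in limma-voom, but edgeR gave adjusted p = 0.296 and 0.0518, and neither call held without replicate 2.

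The differences of IRX1 and IRX3 from DMSO were smaller with the joint trend on GC content and exon length removed. Exons of IRX1 have 67.6% GC, IRX3 64.5%, IRX4 68.0%, IRX5 60.0% and IRX2 54.2%. With the trend of fold change on GC content and exon length over all genes removed, IRX1 differed by 0.24 with CSC (adjusted p = 0.154), 0.08 with BaP (adjusted p = 0.768) and 0.13 with NNK (adjusted p = 0.632), IRX3 by 0.25, 0.11 and 0.05, and IRX2 with NNK by 0.09 (adjusted p = 0.305). IRX2 was then lower with CSC (-0.17, adjusted p = 0.0229) and BaP (-0.18, adjusted p = 0.0445). The estimates for IRX1 and IRX3 thus stayed positive, but none of their calls held. With BaP and NNK each estimate was smaller than its SE, so these values show no direction. The basal markers summed to a median of 6209.2 CPM with DMSO (5203.8 to 10110.9), 5550.2 with CSC (4308.8 to 8158.7), 5894.5 with BaP (4088.9 to 8107.4) and 6713.8 with NNK (5474.0 to 11620.0). Of the 8 markers 5 fell and 2 rose with CSC, 6 fell and 2 rose with BaP, and 2 fell and 4 rose with NNK. The fibroblast markers summed to a median of 17.3 CPM with DMSO (7.5 to 35.3), 34.0 with CSC (13.9 to 57.2), 27.6 with BaP (12.4 to 69.6) and 32.3 with NNK (11.9 to 51.6), and COL1A1 rose by 0.91, 0.82 and 0.73. The part of these markers in the results was not tested.

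**Figure D5:**
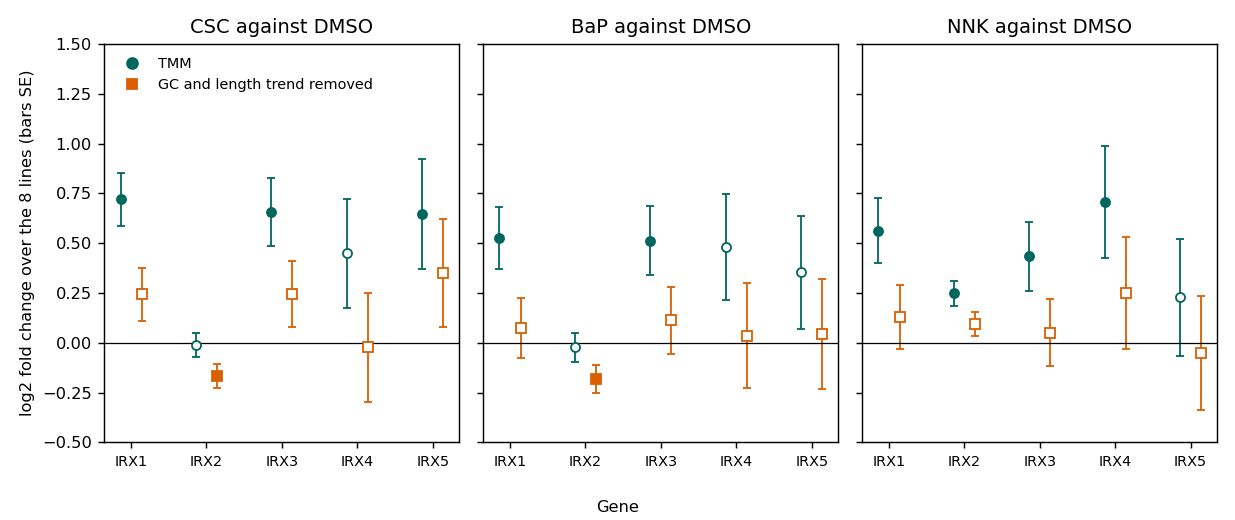
Log2 difference of each carcinogen from DMSO over the 8 lines for the tested members, as fitted and with the GC content and exon length trend removed (bars, SE; filled points, adjusted p under 0.05). IRX1 and IRX3 lie between 0.44 and 0.72 as fitted and between 0.05 and 0.25 with the trend removed.

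Whether the response to the chemicals differed between lines was tested with all 21 interaction terms at once. None of the 5 tested members passed in limma-voom, beside 2.68% of all genes, with adjusted p-values of 0.449 for IRX5, 0.707 for IRX1, 0.754 for IRX3, 0.89 for IRX4 and 0.98 for IRX2. The lowest unadjusted p was 0.119, for IRX5, and edgeR and DESeq2 also called 0 members.

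Over the 32 combinations of line and treatment, the highest coefficient among the members and C5orf38 was that of IRX2 with C5orf38 (Pearson r of the mean log2 levels 0.842, and 0.814 over the 28 combinations without CDKN2A), and that of IRX3 with IRX5 was 0.606 (0.627 without CDKN2A). IRX2 had a coefficient of -0.476 with IRX5 and 0.302 with IRX4, which were -0.064 and 0.086 without CDKN2A, and IRX1 had 0.292 with IRX3. The combinations share lines and libraries, and these coefficients are descriptions. Among 10061 genes with enough reads, the patterns most like that of IRX2 were those of CDK5RAP2 (r = 0.958), TRIM56 (0.943) and UBAP2 (0.939). Without the CDKN2A line these coefficients were 0.681, 0.605 and 0.416. The latter values used the log2 of mean CPM without TMM scaling, so leaving out the line is not separated from the change of measure. The genes most like IRX1 were PPDPF (0.775), RUNX1 (0.766) and GAREM1 (0.761).

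The other TALE homeobox genes gave a frame for the family. The shares of all tested genes that passed were 50.9% in CDKN2A, 48.8% in FAT1, 21.7% in NRF2 and 13.4% in FGFR1. They were 10.8% in NRG1, 27.8% in PIK3CA and 45.0% between GFP and HCRED. In the CDKN2A line 3 of 8 tested TALE genes rose and 1 fell (median -0.072, beside 0.008 over all genes). Among them the repressors TGIF2 and TGIF1 rose by 1.14 and 0.71, and MEIS2 fell by 1.14. In the FAT1 line 3 of 7 rose and 2 fell (median -0.191, beside 0.027), with TGIF2 at 1.24, TGIF1 at 0.59, MEIS1 at 0.42, MEIS2 at -0.92 and PBX3 at -0.61. Of 9 tested, 3 rose in NRF2, none passed in FGFR1, 2 fell in NRG1, and 1 rose and 1 fell in PIK3CA. Between GFP and HCRED 3 were higher and 5 lower in GFP, among them MEIS3 lower by 2.04 and TGIF2 by 1.86. TGIF1 rose with each chemical, by 0.67 with CSC, 0.64 with BaP and 0.45 with NNK, where 55.6%, 51.4% and 51.8% of all genes passed. Its values with the GC content and exon length trend removed are not reported here.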

How the data were processed

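SFL (sparse full length) libraries, which deplete ribosomal RNA and pool barcoded samples in 1 sequencing run, were read as whole-number counts per gene symbol in 95 wells. The counts were deposited by the authors; per the labels and the submitters' processing notes, reads were trimmed with cutadapt 1.12, checked with FastQC 0.11.5, aligned to hg19 with STAR 2.5.2b and counted with featureCounts. The strand setting is not given in the sources used here. No batch is given in the labels.

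Groups came from the sample titles. Counts were TMM-scaled and fitted with limma 3.58.1 voom in R 4.3.3 (2-sided, genes with a mean count above 1, Benjamini-Hochberg, threshold 0.05). Genotypes were compared over the treatments with treatment as a term, and chemicals over the lines with genotype as a term. Log2 levels used a prior count of 2. Alternatives were edgeR 4.0.16 and DESeq2 1.42.0, no filter or a mean of 10, single treatments or kinds of line, left-out replicates or wells under 500000 counts, a replicate block, and removal of the GC content and exon length trend (loess span 0.3). Leaving out the wells of other lines over 50 CPM of NRG1 was chosen after seeing the data. Replicate wells of each combination all differed beyond counting noise (chi-square per degree of freedom 1.128 to 2.653 over 94 pairs). Named genes were the 6 members, the genes of the lists that passed 0.05 (up to 4 in each direction), and the 3 genes most like each member with a mean count of at least 10. ZNF471 and ZDHHC11 were named after their values were seen. Values of some listed genes are not reported here. Exact 95% intervals cover counting error only, since reads carry no molecular identifiers. Floors of 3 counts stand in for groups without reads, and the ratios against them leave out the counting error of the other group. Positions are from the GRCh37 annotation and promoter windows from RefSeq (GRCh38.p14), which held 4 of 7 symbols; IRX3, IRX5 and IRX6 were not analysed there. The fits were tested on simulated data. The members and the lists were chosen with earlier results of these data known.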

Additional observations from a re-analysis of the deposited data

How the results depend on the processing

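The direction and the call of IRX2 held in CDKN2A, FAT1, NRF2, FGFR1 and GFP under every alternative run. In PIK3CA it rose by 0.45 (adjusted p = 0.0612) within CSC alone and 0.63 (adjusted p = 0.0545) within NNK alone, which are fits on fewer wells; in NRG1, where it did not pass, it was -0.19 within CSC alone. IRX1 with the GC and length trend removed was 0.24 with CSC, 0.08 with BaP (0.075) and 0.13 with NNK, and 0.25, 0.07 (0.0685) and 0.15 with the replicate block added. Without single replicates it was 0.68 to 0.79 with CSC, 0.44 to 0.61 with BaP and 0.48 to 0.62 with NNK, and 0.41 with NNK in the CRISPR lines alone (adjusted p = 0.25). IRX2 with CSC was -0.17 with the trend removed (adjusted p = 0.0229), 0.0016 with the replicate block, 0.0003 without wells under 500000 counts, 0.0299 in the CRISPR lines alone and -0.1019 to 0.0803 without single replicates; with BaP it was -0.0956 to 0.0305 without single replicates and 0.226 in the CRISPR lines alone. The cause was not tested. In DMSO, IRX2 in CDKN2A against GFP ranged from -6.60 to -4.43 without single replicates. With a prior count of 0.5, its mean log2 level in the CDKN2A line was -0.28, since most wells had 0 reads. By Spearman correlation the genes most like IRX2 were PODXL (0.892), PAPLN (0.87) and TIMELESS (0.863), none of them among those named by Pearson r. Those most like IRX1 were TNFRSF1A (0.764), GAREM1 (0.761) and RUNX1 (0.749), without PPDPF.

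Of 32 called values of members and C5orf38, 29 held in edgeR, 27 in DESeq2, 29 with no filter, 22, 22 and 27 without replicates 1, 2 and 3, 27 without shallow wells, 22 with the trend removed, and 18 of 20 without the wells of other lines over 50 CPM of NRG1. Replicate numbers did not pair the wells (mean correlation of same-numbered wells 8.18e-07 to 0.0346 over the comparisons), and the replicate block kept 32 of 32. Over all genes, removing the trend left 4887 calls of 8061 with CSC, 3662 of 7403 with BaP and 2807 of 7448 with NNK. The CRISPR lines alone gave 5217 with CSC and 4479 with NNK, and no filter gave 11531 with NNK. Leaving out single replicates lowered the count to 2008 from 3088 in NRF2, to 1034 from 1928 in FGFR1 (replicate 2) and to 721 from 1528 in NRG1 (replicate 1). Single treatments, with fewer wells, gave 4015 to 4594 calls in CDKN2A (7273 over the carcinogens), 2304 to 3752 in FAT1 (6846), 528 to 1045 in NRF2, 201 to 418 in FGFR1, 219 to 327 in NRG1, 928 to 1503 in PIK3CA (3996) and 1668 to 3217 between GFP and HCRED (6380). The interaction test had 385 calls, and 152 in DESeq2, 135 without replicate 2, 156 without replicate 3 and 220 with the trend removed. Depth limits IRX4, IRX5 and IRX6 most.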

Other observations

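The genes near the 2 clusters and the lung transcription factors were counted beside the family. The shares of all tested genes that passed the threshold were 50.9% in CDKN2A, 48.8% in FAT1, 21.7% in NRF2, 13.4% in FGFR1, 10.8% in NRG1, 27.8% in PIK3CA, 45.0% between GFP and HCRED, 55.6% with CSC, 51.4% with BaP and 51.8% with NNK. The counts of neighbours lay on both sides of these shares. Of the chromosome 16 neighbours, none rose and 3 of 8 tested fell in CDKN2A, 5 of 8 fell in FAT1, and 5, 5 and 4 of 9 fell with CSC, BaP and NNK. In NRF2 1 of 9 fell, in FGFR1 none passed, in NRG1 2 rose and 1 fell, in PIK3CA 1 rose, and between GFP and HCRED 4 were higher and 1 lower. Of the chromosome 5 neighbours, C5orf38 included, 4 of 9 tested rose and 2 fell in CDKN2A, 4 fell in FAT1, 2 rose and 3 fell in NRF2, 2 rose and 1 fell in FGFR1, 1 rose and 1 fell in NRG1 and in PIK3CA, and 1 was higher and 2 lower in GFP than in HCRED. With CSC 5 rose and 2 fell, with BaP 3 and 2, and with NNK 3 and 1.

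Of 14 tested lung epithelial transcription factors, 6 rose and 3 fell in the CDKN2A line with carcinogens (median 0.251, beside 0.008 over all genes). ID2 rose by 1.58 on the log2 scale, the pioneer factors FOXA2 and FOXA1 by 1.57 and 1.24, and ETV5, a target of growth factor signalling, by 1.33, while FOXP1, KLF5 and GRHL2 fell by 0.57, 0.47 and 0.27. In FAT1 1 of 13 rose and 5 fell (median -0.103, beside 0.027), with FOXA1 lower by 1.68 and ETV5 by 1.49. The CDKN2A and FAT1 comparisons share the 9 carcinogen-treated GFP wells. With CSC 7 of 14 rose and 1 fell (median 0.329, beside -0.008), led by ETV4 (1.15), FOXA2 (0.82) and ETV5 (0.79). With BaP 5 of 13 rose and 2 fell, and with NNK 3 rose, ELF3, ETV4 and FOXA1. The remaining counts were 4 rising and 4 falling in NRF2, 1 and 4 in FGFR1, 3 and 5 in NRG1, 2 and 5 in PIK3CA, and 3 higher and 3 lower in GFP than in HCRED. In the interaction test ETV5 (adjusted p = 0.00736) and TP63 (adjusted p = 0.000478) passed in limma-voom.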
